A study of Mus musculus with 12 samples.

Results

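The response of the mouse colon to carcinogen and injury was compared between wild-type mice and mice without thrombospondin-1 (TSP-1) over all 12 arrays of the series, 3 mice in each of 4 groups. For each probe the response difference was calculated as the TSP-1-/- minus WT difference after AOM/DSS, less the same difference on water, on the log2 scale. All 28815 probes with values on the 12 arrays were tested, and they covered 19935 genes that had a probe naming only that gene. A value above 0 means that TSP-1-/- exceeded WT by more after AOM/DSS than on water.

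TSP-1 is a secreted glycoprotein of the extracellular matrix that restrains the growth of blood vessels and activates latent transforming growth factor beta. Azoxymethane (AOM) is a carcinogen that acts on the colon, and dextran sodium sulfate (DSS) in the drinking water damages the colonic epithelium. Repeated injury after AOM produces inflamed colons that develop tumors, in which signalling through Wnt and beta-catenin is commonly active.

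The mice were C57BL/6 males, labelled Wt or TSP-null, and every TSP-null mouse lacked TSP-1 in all tissues from conception. The Wt and TSP-null AOM-DSS groups received 1 injection of 10 mg/kg AOM and 4 cycles of 1.5% DSS from 7 weeks of age and were killed 15 weeks after AOM. The labels place the injection on the first day of DSS, whereas the methods place it before the first cycle. The Wt water and TSP-null-water groups had neither agent. The protocol attached to the water samples is that of another experiment with 2.5% DSS, and their age is not given in the sources used here. The tissue is labelled colon. A figure legend of the study calls the treated samples tumors and the untreated ones colonic tissue, and its methods speak of normal and diseased tissue. The share of tumor in each sample is not known, and a difference in tissue cannot be told apart from treatment. In such bulk RNA, fewer cells of a type and less RNA per cell cannot be told apart.

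The deposited values were relative to a baseline for each probe. The median of all 12 arrays was not that baseline for most probes, because it lay within 0.001 of 0 for only 4.18% of them. The water arrays may be on another baseline than the AOM/DSS arrays, which was not tested. A baseline shared by the water arrays cancels in the response difference. Treatment and array set otherwise cannot be told apart, and relative values do not show whether defining markers of colon were present. Within groups the median SD was 0.241 for treated mice and 0.169 for water mice, and the number of arrays limits the precision. Thbs1, the gene of TSP-1, checks little here because the mutated locus is still transcribed. It was 0.27, -0.16 and -0.07 in WT and 0.81, 0.85 and 0.93 in TSP-1-/- after AOM/DSS, so the treated groups did not overlap. On water it was -1.36, -0.99 and -0.47 in WT and 0.00, -0.96 and -1.15 in TSP-1-/-.

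Some arrays stood apart from their group. Among 815 probes past a descriptive threshold given below, WT AOM/DSS replicate 1 was closer to the average of TSP-1-/- than of the remaining WT arrays at 32% of them, against 2.82% and 1.1% for the other treated WT arrays. TSP-1-/- AOM/DSS replicate 3 had an SD over probes of 0.753, where the other 11 arrays had 0.293 to 0.453. It also had a median of 5.89 over 16 genes of pancreatic enzymes, against -0.25 to 0.02 in the other treated arrays. TSP-1-/- water replicate 1 had a median of 0.27 over 18 neutrophil genes, where the other water arrays had -2.12 to -1.43. Results that rest on these arrays are given with and without them.

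Only 2 probes were called by limma, with at least a 2-fold response difference and a p under 0.05 after Benjamini-Hochberg adjustment. Both were higher in TSP-1-/- (0.00694% of the probes tested), and 0 were lower (0%). At an unadjusted p under 0.05, 2870 probes were higher and 1561 were lower. This split depended on the scaling, with 2187 higher and 2105 lower when each array was centred on its median, 1239 and 1451 after repeated quantile normalization, and 1757 and 2175 when the quantile step was run on each array set alone. The called probes were those of Rfx4 and Atp6v0d2.

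Rfx4 encodes a transcription factor of the regulatory factor X family that is best known from the developing brain. Its values were 5.80, 5.87 and 6.88 in treated TSP-1-/- mice and -0.34, -0.19 and -0.06 in treated WT mice. On water they were -0.09, -0.18 and 0.10 in WT and -0.19, 0.00 and -0.03 in TSP-1-/-. The 3 treated TSP-1-/- arrays were far above the other 9, including WT replicate 1. The response difference was 6.39 (SE 0.34, n = 3 per group, limma adjusted p = 8.03e-06), or 84.1-fold. It was 3.96 (adjusted p = 0.0342) after repeated quantile normalization and 4.79 (adjusted p = 0.00923) with the quantile step on each array set alone. The gene lies at positions 84756036 to 84906538 of chromosome 10 (GRCm38.p6).

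Atp6v0d2 encodes a subunit of the proton pump that acidifies lysosomes and is abundant in osteoclasts and some macrophages. It was 2.05, 3.09 and 2.91 in treated TSP-1-/- mice and -0.20, -0.25 and -0.29 in treated WT mice. The water arrays lay between -0.44 and 0.00 in both genotypes. Its response difference was 2.99 (SE 0.32, limma adjusted p = 0.0115). The call was lost when the replicate number was a block (adjusted p = 0.0594), after quantile normalization was repeated (1.77, adjusted p = 0.111) or done within each array set (2.25, adjusted p = 0.0722). It was also lost without WT water replicate 1 (adjusted p = 0.0667), TSP-1-/- water replicate 2 (adjusted p = 0.0651) or WT AOM/DSS replicate 3 (adjusted p = 0.0756).

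The next 3 genes had a limma adjusted p of 0.0537. Krt36, a hair-type keratin, was 1.70, 2.03 and 2.16 in treated TSP-1-/- mice and 0.07, -0.19 and 0.09 in treated WT mice, with a response difference of 1.75 (SE 0.24). Sbspon and Hmcn1, named after their values were seen, both encode matrix proteins with thrombospondin type 1 repeats. Sbspon was 2.50, 1.50 and 2.58 in treated TSP-1-/- mice and 0.21, -0.41 and -0.33 in treated WT mice, a response difference of 2.72 (SE 0.36). The lowest-p probe of Hmcn1 gave 1.38 (SE 0.19), and its 77 probes ranged from -0.17 to 1.95.

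**Figure D1:**
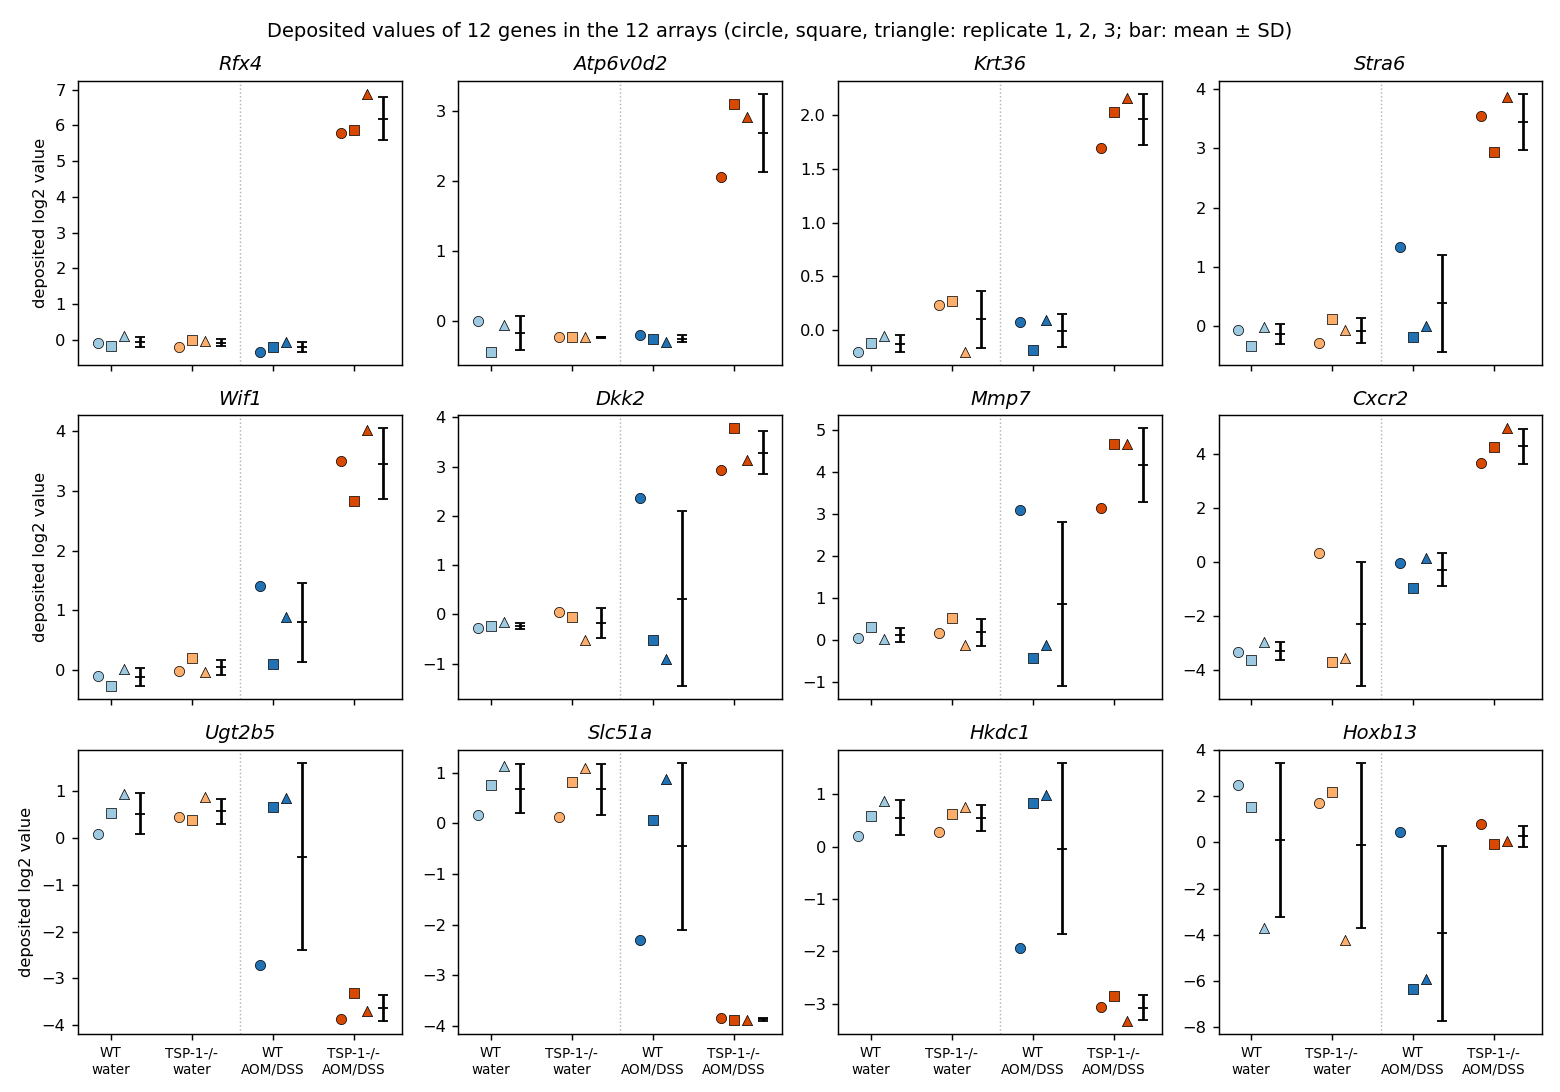
Deposited log2 value (vertical axis) of 12 genes in each of the 12 arrays, by group, with the mean and SD of 3 arrays beside the points. Values are relative to a baseline that may differ between the water and AOM/DSS arrays. Circles, squares and triangles are replicates 1, 2 and 3. In Rfx4, Atp6v0d2 and Krt36 all treated WT arrays lie near 0, whereas in Dkk2, Mmp7, Ugt2b5, Slc51a and Hkdc1 the circle of WT AOM/DSS replicate 1 lies toward TSP-1-/-.

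Since so few probes passed, gene classes were described with a looser threshold, an unadjusted p under 0.05 with at least a 2-fold response difference in every probe of the gene. By it 406 genes were higher (2.04%) and 333 were lower (1.67%) in TSP-1-/-, and these shares are the background for the counts that follow. Without the 2-fold minimum they were 1905 (9.56%) and 1273 (6.39%). Genes past this threshold did not pass the adjusted test unless that is stated. The median response difference of all genes was 0.12, and 60.7% of genes were above 0. Centring each array took the median of all probes from 0.125 to 0.047, and repeated quantile normalization took it to 0.007, so lists with medians near 0.1 have no settled direction.

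Most of the difference lay on the treated side. The SD over probes of the TSP-1-/- minus WT difference was 0.519 after AOM/DSS and 0.179 on water. When the water values were moved by 1 offset per probe so that the median of the 12 arrays was 0, an estimate without a test, 330 of the 466 probes past the threshold as higher changed at least 2-fold in TSP-1-/- alone. In WT alone this was so for 8. Of 349 probes past it as lower, 219 changed at least 2-fold in TSP-1-/- alone and 11 in WT alone. These counts rest on the assumption that the treated values were relative to the median of all 12 arrays, which was not tested.

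**Figure D2:**
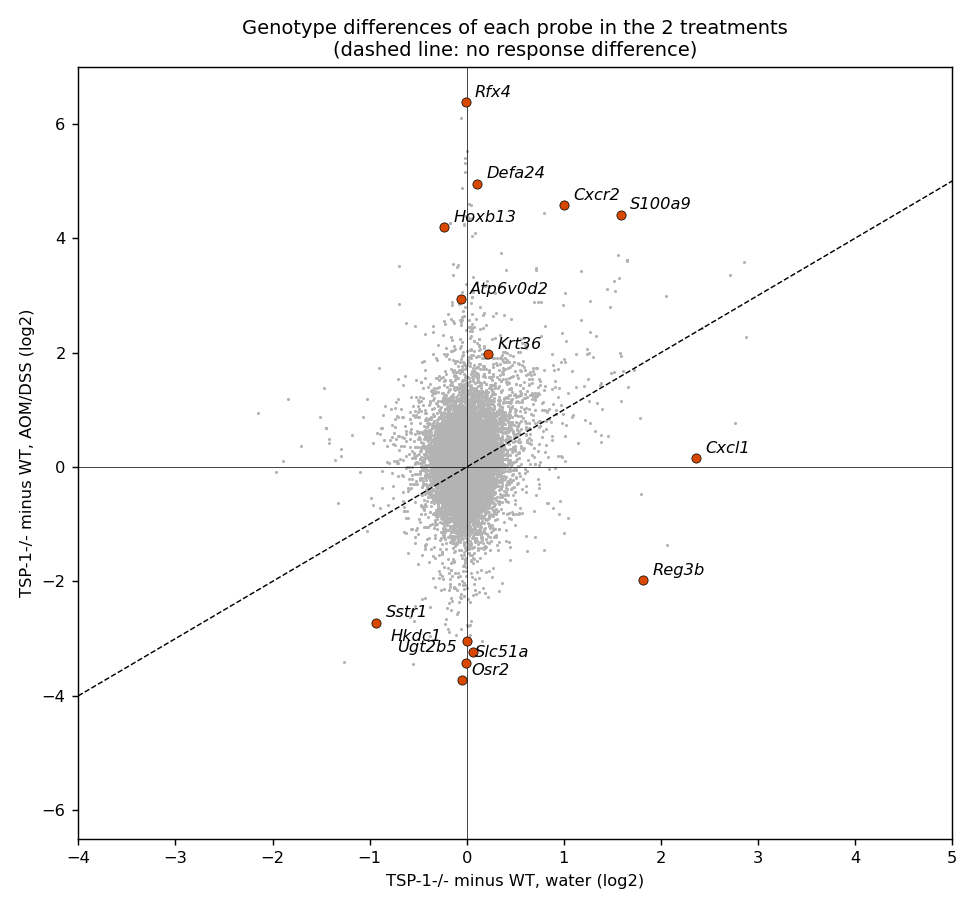
TSP-1-/- minus WT difference of each tested probe on water (horizontal axis, log2) and after AOM/DSS (vertical axis, log2), with 14 genes marked; on the dashed line the response difference is 0. Rfx4 (-0.01 and 6.38), Osr2 (-0.05 and -3.73) and most marked genes differ after AOM/DSS, whereas Cxcl1 (2.36 and 0.15) differs on water.

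Hox genes and regional factors carry position along the gut, and Hoxb13 is a gene of the most distal colon. Hoxb13 was 0.43 in WT AOM/DSS replicate 1 and -6.33 and -5.89 in replicates 2 and 3, while treated TSP-1-/- arrays had 0.78, -0.06 and 0.06. On water it was 2.48, 1.52 and -3.68 in WT and 1.70, 2.17 and -4.24 in TSP-1-/-. The arrays thus fell into high and low levels within 3 of the 4 groups, and the treated TSP-1-/- arrays held only high ones. Its response difference was 4.42 with an SE of 2.93 (limma adjusted p = 0.451).

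Osr2, a zinc finger factor with regional expression, ran the other way at -4.13 in WT replicate 1, 0.94 and 1.19 in replicates 2 and 3, and -4.53 to -4.16 in treated TSP-1-/- mice. Hoxb6 was -3.44, 1.28 and 0.98 in treated WT mice and -3.43 to -2.60 in treated TSP-1-/- mice. Isx, an intestinal homeobox factor, was -1.54, 0.24 and 0.59 in treated WT mice and -2.81 to -1.95 in treated TSP-1-/- mice. WT replicate 1 therefore carried the TSP-1-/- level of Osr2 and Hoxb6. Of 33 Hox genes, 0 were higher and 2 lower past the looser threshold, with a median of 0.02. These counts were 6 and 11 without WT AOM/DSS replicate 1, against 583 (2.92%) and 534 (2.68%) of all genes. The lower count was 0 in 5 of the other fits with an array left out. Cdx2, which specifies intestinal epithelium, had a response difference of -1.51 (SE 0.50, limma adjusted p = 0.251). Regional factors did not move as 1 group. Of 19 measured, 3 were higher and 3 lower past the looser threshold, with a median of 0.16. The higher ones were Rfx4, Onecut2 at 1.38 (SE 0.39) and Tbx3 at 1.12 (SE 0.37).

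Among the treated WT arrays these positional levels moved with many classes below, and their part in those results was not tested. On water Hoxb13 was low in replicate 3 of both genotypes. Osr2 was 1.16 in WT and 0.95 in TSP-1-/- there, against -0.10 to 0.33 in the other water arrays. Hoxb6 was 1.13 and 1.26, against -0.12 to 0.11. The median over genes of drug and steroid metabolism was 0.36 in replicate 3 of both genotypes, against 0.26 to 0.38 in the other water arrays. Ugt2b5, a gene of that list, was 0.95 and 0.88 there, against 0.08 to 0.54 in the other water arrays. Where WT replicate 1 is given beside TSP-1-/- arrays, it is the treated WT array with a like level of Hoxb13, Hoxb6 and Osr2.

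Genes of drug and steroid metabolism were the class with the lowest median. Of 28 measured, 16 were lower and 0 higher past the looser threshold, the median response difference was -1.42, and 26 were below 0. The list median was -0.48 in WT replicate 1, 0.37 and 0.49 in replicates 2 and 3, and -0.79, -0.68 and -2.08 in treated TSP-1-/- arrays. On water it was 0.26 to 0.38 in all 6 arrays. The groups did not overlap after AOM/DSS, although WT replicate 1 lay close to the first pair of TSP-1-/- arrays.

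Ugt2b5, which joins glucuronic acid to steroids and drugs, was -2.71, 0.67 and 0.86 in treated WT mice and -3.87, -3.32 and -3.69 in treated TSP-1-/- mice. Its response difference was -3.28 (SE 1.00, limma adjusted p = 0.249). Cyp2c65, a cytochrome P450 of the gut, was -1.57, 0.37 and 0.33 in treated WT mice and -2.97, -1.80 and -4.42 in treated TSP-1-/- mice, with a response difference of -2.77 (SE 0.84). The carboxylesterases Ces2a and Ces2e had response differences of -2.39 (SE 0.68) and -1.44 (SE 0.39), and the glutathione transferase Gstm3 had -1.25 (SE 0.33). Gstm3 was -0.01, 0.42 and 0.51 in treated WT mice and -0.51, -0.44 and -1.16 in treated TSP-1-/- mice, so WT replicate 1 was on the side of its own group here.

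Bile acid and lipid uptake genes were divided. Of 20 genes, 5 were lower and 1 higher past the looser threshold, with a median of -0.24. Slc51a and Slc51b form the transporter that carries bile acids out of the enterocyte into the blood. Slc51a was -2.30, 0.06 and 0.88 in treated WT mice and -3.84, -3.89 and -3.88 in treated TSP-1-/- mice (response difference -3.41, SE 0.86), and Slc51b had a response difference of -2.23 (SE 0.55). Nr1h4, the bile acid receptor, had -1.37 (SE 0.39). The export pump Abcc2 was the member that was higher, at 1.20 (SE 0.36), and Abcb4 was 0.96 (SE 0.23). All 5 had a limma adjusted p of 0.207 to 0.249.

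Respiratory chain genes had small differences, and 16 of the 18 fatty acid genes were below 0. All 19 measured respiratory chain genes were below 0, from -0.98 to -0.22 with a median of -0.57. Of them 10 were lower at an unadjusted p under 0.05 and 0 reached 2-fold. Of 18 genes of fatty acid oxidation and ketone formation, 4 were lower past the looser threshold and 11 at the unadjusted p alone, with a median of -0.84. Acadm, a dehydrogenase of medium-chain fatty acids, was 0.06, 0.16 and 0.38 in treated WT mice and -0.34, -0.46 and -0.96 in treated TSP-1-/- mice, and the groups did not overlap. The nuclear receptors Ppara and Pparg, which drive lipid genes, had response differences of -2.04 (SE 0.71) and -1.15 (SE 0.35). Glycolysis genes had a median of -0.21, and Hkdc1, a hexokinase domain protein, was the 1 of 16 past the looser threshold at -3.04 (SE 0.82).

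Absorptive, goblet and enteroendocrine genes also had medians below 0. Of 24 brush border and ion transport genes, 6 were lower and 0 higher, with a median of -0.86. This list and the 6 include Sct at -2.13 (SE 0.70), which encodes the hormone secretin. Tmigd1, a membrane protein of mature enterocytes, was -1.69, 0.17 and 0.50 in treated WT mice and -3.01, -2.06 and -3.01 in treated TSP-1-/- mice (response difference -2.39, SE 0.64). Of 19 goblet cell genes, 4 were lower and 0 higher, with a median of -0.34. Atoh1 and Spdef, factors of the secretory lineage, were -1.15 (SE 0.43) and -1.38 (SE 0.54).

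Of 25 enteroendocrine genes, 9 were lower and 1 higher, with a median of -0.59. Sstr1, a somatostatin receptor, was 0.60, 1.96 and 2.10 in treated WT mice and -0.81, -1.50 and -1.20 in treated TSP-1-/- mice. It was also lower in TSP-1-/- on water, at -0.35, 0.13 and -0.11 against 0.72, 1.12 and 0.60. Its genotype difference was therefore -2.72 after AOM/DSS and -0.93 on water, which left a response difference of -1.80 (SE 0.48). Sst, which encodes somatostatin, had -1.64 (SE 0.51), the prohormone convertase gene Pcsk1 had -1.43 (SE 0.47), and the granule gene Chgb had -1.19 (SE 0.40). Nts, which encodes neurotensin, was -2.91, 0.68 and 0.82 in treated WT mice and -3.59 to -3.22 in treated TSP-1-/- mice, so WT replicate 1 again lay with TSP-1-/-.

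Inhibitors and targets of Wnt signalling had more members higher than lower past the looser threshold. Wnt ligands stabilise beta-catenin, which acts with TCF/LEF factors, and several of the target genes encode inhibitors that feed back on the pathway. Of 20 inhibitors, 8 were higher and 0 lower past the looser threshold, with a median response difference of 0.71. The list median was 0.27, -0.12 and -0.28 in treated WT arrays and 0.44, 0.57 and 1.39 in treated TSP-1-/- arrays, and the groups did not overlap.

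Wif1, a secreted protein that binds Wnt, was 1.41, 0.09 and 0.89 in treated WT mice and 3.50, 2.84 and 4.03 in treated TSP-1-/- mice. Its response difference was 2.49 (SE 0.46, limma adjusted p = 0.121). Nkd1, an inhibitor of Dishevelled, was 1.78, 0.27 and -0.27 in treated WT mice and 3.28, 2.81 and 3.34 in treated TSP-1-/- mice (2.78, SE 0.58). Apcdd1, a membrane inhibitor, was 1.46, 0.01 and -0.16 in treated WT mice and 3.25, 2.65 and 3.14 in treated TSP-1-/- mice (2.56, SE 0.49). Notum, an enzyme that removes the lipid of Wnt, was 0.81, -0.19 and -0.38 in treated WT mice and 3.34, 1.44 and 3.51 in treated TSP-1-/- mice (2.63, SE 0.65). Rnf43, a ligase that clears Frizzled receptors, was 0.06, -0.08 and -0.30 in treated WT mice and 1.13, 0.76 and 1.51 in treated TSP-1-/- mice (1.40, SE 0.27). The water arrays of Wif1 lay between -0.28 and 0.19 in both genotypes. WT replicate 1 was the highest treated WT array of each of these inhibitors. Dkk2 had 2.36 in it beside -0.51 and -0.90 in WT and 2.94, 3.78 and 3.14 in TSP-1-/-.

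Of 17 Wnt target and stem cell genes, 6 were higher and 0 lower past the looser threshold, with a median of 0.37, and 2 were lower at the unadjusted p alone. The list median was 0.45, -0.05 and -0.27 in treated WT arrays and 0.32, 0.60 and 0.57 in treated TSP-1-/- arrays, so the groups overlapped through WT replicate 1. Lef1, a partner of beta-catenin, was 1.26, -0.59 and -0.33 in treated WT mice and 2.68, 2.05 and 4.08 in treated TSP-1-/- mice (2.97, SE 0.71). Sp5, a transcription factor induced by Wnt, was 0.50, -0.31 and -0.48 in treated WT mice and 1.44, 1.07 and 2.08 in treated TSP-1-/- mice (1.83, SE 0.39). Tnfrsf19, a receptor found in Wnt-active crypts, gave 1.29 (SE 0.26), and Lgr5, the receptor that marks crypt stem cells, gave 1.44 (SE 0.52). Prox1, a factor raised by Wnt in colon tumors and also expressed in lymphatic endothelium, gave 2.67 (SE 0.57). None of these passed the adjusted test. Myc, another target, had 0.16 (SE 0.39), and its sign turned in some fits that left out 1 array.

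The sequence before the transcription start was searched for TCF/LEF motifs (ATCAAAG or TTCAAAG, both strands) and HNF4 motifs (CAAAGTCCA or CAAAGGTCA, both strands) over 250 bases. The RefSeq promoter table (GRCm38.p6) held 13 of the Wnt target genes, 11 of the inhibitors and 25 of the drug and steroid genes. TCF/LEF matches were in 2 of the 13 (15.4%), 1 of the 11 (9.09%) and 4 of the 25 drug and steroid genes (16%), against 8.63% of the 27025 genes with a promoter. HNF4 matches were in 2 of the 25 (8%), against 0.932% of all genes. These matches are descriptions of the letters and show no binding. The windows of the Wnt targets with a match and of 1 cytochrome are shown because these genes are among the members described above, with the motif in capitals. That of Tnfrsf19 lies within the span of the gene (60963834 to 61046855), so it precedes an inner transcription start.
Sp5, chr2:70474779-70474865, plus strand: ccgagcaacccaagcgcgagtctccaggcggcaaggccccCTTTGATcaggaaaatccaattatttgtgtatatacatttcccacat
Tnfrsf19, chr14:61038143-61038229, minus strand: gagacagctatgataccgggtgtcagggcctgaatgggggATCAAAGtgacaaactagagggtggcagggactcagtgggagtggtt
Cyp2c65, chr19:39060850-39060938, plus strand: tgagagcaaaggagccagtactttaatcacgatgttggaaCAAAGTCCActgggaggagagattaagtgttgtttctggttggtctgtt

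Paneth cells and antimicrobial genes gave the highest list median, with a wide spread. Paneth cells are absent from the normal colon but can appear in injured or neoplastic colon. Of 11 measured genes, 4 were higher and 0 lower past the looser threshold, the median was 2.63 (0.89 to 2.56 under the scaling alternatives and 1.48 to 3.84 without single arrays), and values ran from -3.80 to 4.84. Defa24, a defensin, was 1.89, 0.07 and -0.43 in treated WT mice and 4.12, 4.98 and 7.27 in treated TSP-1-/- mice (4.84, SE 1.00). Mmp7, the protease that activates defensins, was 3.10, -0.44 and -0.13 in treated WT mice and 3.14, 4.67 and 4.68 in treated TSP-1-/- mice (3.25, SE 1.04). Lyz1, lysozyme of Paneth cells, was 3.03, -0.29 and 0.12 in treated WT mice and 3.57, 4.13 and 4.63 in treated TSP-1-/- mice (2.80, SE 0.94). WT replicate 1 was near the TSP-1-/- arrays in both Mmp7 and Lyz1. Itln1 was 1.84, -0.70 and -0.70 in treated WT mice and 1.01, 3.48 and 4.50 in treated TSP-1-/- mice (3.55, SE 1.27). The treated groups of Itln1 overlapped. The list median was 1.84, -0.29 and 0.12 in treated WT arrays and 0.23, 3.31 and 3.01 in treated TSP-1-/- arrays. These list medians also overlapped, through WT replicate 1. Reg3b and Reg3g, lectins against bacteria, had response differences of -3.80 (SE 1.76) and -3.42 (SE 1.63), so this list did not move as 1 group. The defensin genes are near-identical copies whose probes may share signal.

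Mast cell proteases depended on the same WT array. Mcpt2 was 5.97, 0.04 and -0.04 in treated WT mice and 4.67, 5.93 and 4.95 in treated TSP-1-/- mice, so WT replicate 1 had the highest value of all. Mcpt1 was 4.77, -1.71 and 0.78 in treated WT mice and 3.89, 5.18 and 4.53 in treated TSP-1-/- mice. Their response differences of 3.20 (SE 1.67) and 3.04 (SE 1.61) did not pass. Of 15 mast cell genes, 1 was higher past the looser threshold, with a median of 0.45. Leaving out WT AOM/DSS replicate 1 made the higher count 6, against 583 (2.92%) of all genes. The mast cell count was 0 without WT water replicate 1, TSP-1-/- water replicate 1 or WT AOM/DSS replicate 3. Tpsg1, a tryptase, had -0.92 (SE 0.30, limma adjusted p = 0.251), so the list did not move as 1 group. Cpa3, a mast cell carboxypeptidase, had 1.47 (SE 0.70), and its sign turned under both quantile alternatives.

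Neutrophil genes had higher treated values in TSP-1-/- mice, but 1 water array weighed on the result. Of 18 genes, 1 was higher and 0 lower past the looser threshold, with a median of 0.77. Cxcr2, the chemokine receptor that brings neutrophils into tissue, was 3.66, 4.25 and 4.96 in treated TSP-1-/- mice and -0.03, -0.98 and 0.15 in treated WT mice. On water it was -3.33, -3.63 and -2.97 in WT and 0.35, -3.71 and -3.57 in TSP-1-/-, so replicate 1 stood apart. The response difference was 3.58 (SE 1.19, limma adjusted p = 0.251), and without that water array it was 4.91 (adjusted p = 0.0218). S100a9, a calcium-binding protein of neutrophils, was 0.49 in that water array and -5.99 to -5.09 in the other 5, with a response difference of 2.82 (SE 1.90). S100a8, its partner, had 1.68 (SE 1.72) and turned to -0.01 when quantile normalization was repeated. Without that water array 10 of the 18 neutrophil genes were higher past the looser threshold, and the list median was 1.59. Over all genes the higher count was at most 674 in any fit with an array left out.

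Cxcl5, a ligand of Cxcr2, was 1.94, -0.15 and -0.84 in treated WT mice and 3.86, 3.73 and 4.57 in treated TSP-1-/- mice (3.38, SE 1.43). Cxcl1, another ligand, had its difference on the water side. It was -3.70, -3.45 and -0.16 in WT and 0.03, -0.03 and -0.22 in TSP-1-/- on water, while all 6 treated arrays lay between -0.21 and 0.27. Its response difference was -2.21 (SE 0.95, limma adjusted p = 0.306), and it was -3.35 (adjusted p = 0.000195) without WT water replicate 3. Of 19 chemokine and inflammation genes, 2 were higher and 1 lower. The higher count was 8 without TSP-1-/- water replicate 1 and 0 in 6 of the other fits with an array left out, and the median of 0.36 was -0.02 in 1 of the fits with an array left out.

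Macrophage, B cell and antigen presentation genes had more members higher than lower past the looser threshold, and the sizes of their medians depended on the scaling. Of 19 macrophage genes, 4 were higher and 0 lower, with a median of 0.59 (0.24 to 0.52 under the scaling alternatives). They were Atp6v0d2, Itgax, Arg1 and Lyz2, whose response differences were 2.99, 1.20 (SE 0.33), 1.72 (SE 0.48) and 1.32 (SE 0.51). Arg1, arginase of activated macrophages, was -1.06, -0.02 and -0.44 in treated WT mice and 1.02, 1.16 and 2.10 in treated TSP-1-/- mice. Of 19 B and plasma cell genes, 6 were higher and 0 lower, with a median of 1.44 (0.67 to 1.36 under them). Their list median was 1.09, 0.00 and 2.58 in the treated TSP-1-/- arrays, so it lay at the WT level in replicate 2. Cr2, the complement receptor of B cells, was 3.36, 0.04 and 4.27 there and -0.29 to 0.22 in treated WT mice. Without TSP-1-/- AOM/DSS replicate 3, 3 of the B and plasma cell genes were higher, with a median of 0.76.

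Of 17 T and natural killer cell genes, 2 were higher, and their median of 0.53 ran from -0.17 to 0.45 under the scaling alternatives. Without that array 0 were higher and 2 lower, with a median of -0.31, and 0 were higher without WT water replicate 1, WT water replicate 3 or WT AOM/DSS replicate 1. Of 16 antigen presentation genes, 3 were higher, with a median of 0.58 (0.15 to 0.50 under those scalings), and 1 was higher without it, with a median of 0.24. Of 16 interferon genes, 2 were higher, with a median of 0.23. The 16 pancreatic enzyme genes had a median of 1.55 with that array and -0.05 without it. With all 12 arrays 2 of them, Pnliprp2 at 4.21 (SE 1.51) and Pnliprp1 at 3.65 (SE 1.54), were higher past the looser threshold. Without that array 1 was. Pnliprp1 was 3.26, -0.29 and -0.25 in treated WT mice and 5.37, 3.47 and 7.23 in treated TSP-1-/- mice. Cel, a pancreatic lipase, was 7.83 in that array and 0.07 and 0.27 in the other treated TSP-1-/- arrays. On water the list median was 1.05 in TSP-1-/- replicate 1 and -0.16 to 0.06 in the other arrays. The part of the pancreatic genes in the lymphocyte values was not tested.

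**Figure D3:**
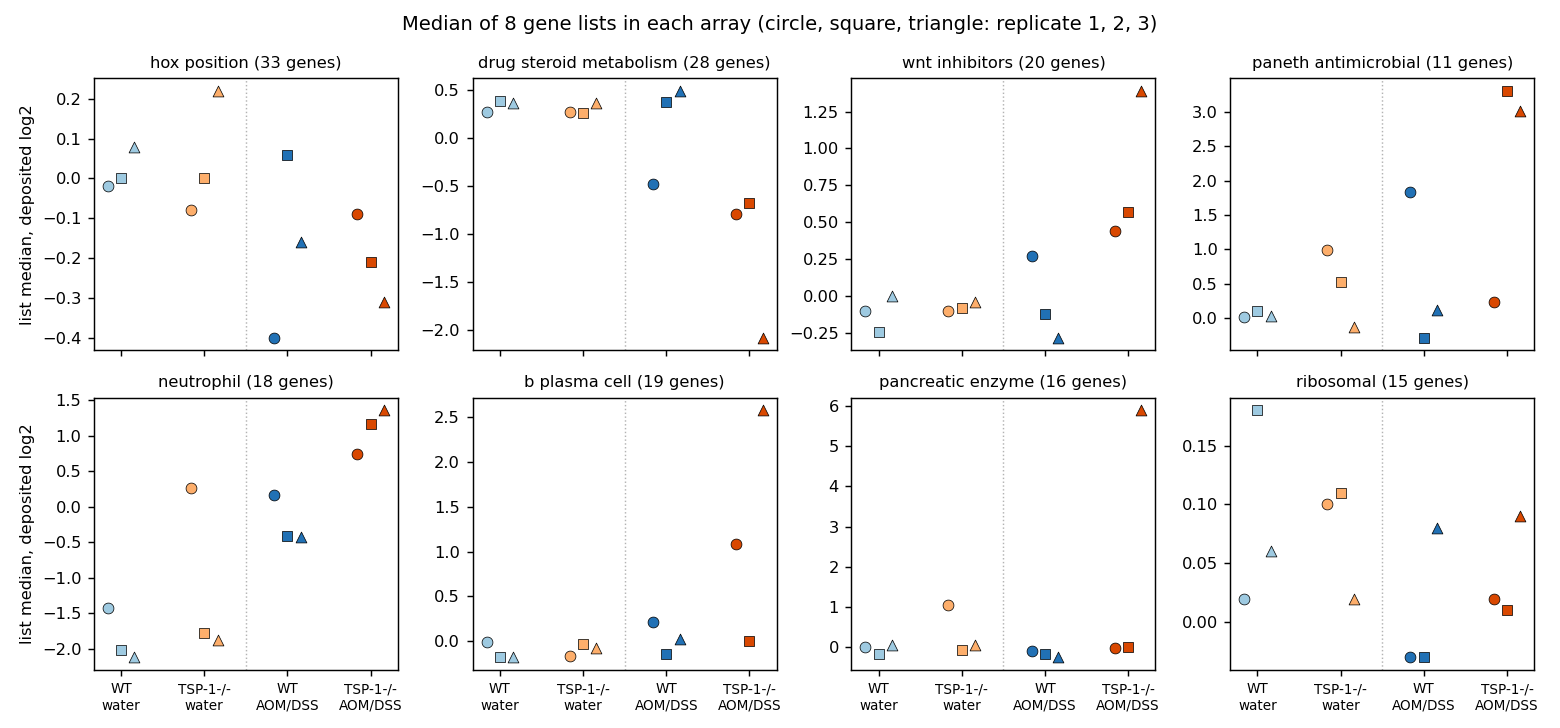
Median deposited log2 value over the genes of 8 lists in each of the 12 arrays, by group, with 1 point per array and the vertical scale set for each list; circles, squares and triangles are replicates 1, 2 and 3. Drug and steroid genes are below every treated WT array in the treated TSP-1-/- arrays, the pancreatic list is high in 1 of these arrays (5.89), and the neutrophil list is high in 1 water array (0.27).

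Matrix and keratin genes were further classes with more members higher than lower. Of 24 matrix genes, 4 were higher and 0 lower, with a median of 0.37 (0.05 to 0.29 under the scaling alternatives). Col1a1, the chain of type I collagen, was -0.29, -0.77 and -0.57 in treated WT mice and 0.46, 0.51 and 1.29 in treated TSP-1-/- mice (1.15, SE 0.30). Has2, which makes hyaluronan, gave 1.23 (SE 0.28), and Fn1, fibronectin, gave 1.30 (SE 0.38). The treated groups of Col1a1 did not overlap, and WT replicate 1 was within its own group.

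Of 19 keratin and squamous genes, 5 were higher and 1 lower, with a median of 0.63. Krt14, a basal keratin, was 0.10, -0.09 and -0.02 in treated WT mice and 2.44, 1.10 and 1.55 in treated TSP-1-/- mice (1.76, SE 0.36), and Krt23 gave 2.05 (SE 0.42). Sprr1a, an envelope protein of squamous cells, was the member that was lower at -1.85 (SE 0.58). Among 17 retinoid genes, 2 were higher and 1 lower, and their median of 0.13 ran from -0.12 to 0.29 without single arrays and from -0.04 to 0.05 under the scaling alternatives. Stra6, the membrane receptor for retinol, was 1.33, -0.18 and 0.01 in treated WT mice and 3.54, 2.93 and 3.86 in treated TSP-1-/- mice (2.99, SE 0.49, limma adjusted p = 0.087). Rarb, a retinoic acid receptor, gave 1.14 (SE 0.23).

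A few genes of the hepatic and acute phase list were higher without the list as a whole. Of 16 hepatic and acute phase genes, 3 were higher and 0 lower, with a median of 0.26. Fetub, a plasma protease inhibitor, was -0.05, -0.45 and -0.82 in treated WT mice and 3.42, 2.15 and 2.03 in treated TSP-1-/- mice (2.92, SE 0.46, limma adjusted p = 0.087). Alb, albumin, was 1.22, -0.39 and -0.32 in treated WT mice and 2.93, 2.61 and 3.34 in treated TSP-1-/- mice (2.66, SE 0.50). The third, Gatm, a creatine synthesis enzyme, gave 1.97 (SE 0.39).

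Classes tied to TSP-1 itself had 1 or 2 members each past the looser threshold, by which 2.04% of all genes were higher. Of 22 transforming growth factor beta and BMP genes, 1 was higher, with a median of 0.32, and Tgfb3 and the latent binding protein Ltbp1 gave 0.91 (SE 0.22) and 1.08 (SE 0.28). Of 16 thrombospondins and their receptors, 1 was higher, with a median of 0.26. It was Thbs2, the closest relative of TSP-1, at 1.29 (SE 0.44), and the receptor Cd47 gave 0.79 (SE 0.24). Of 24 endothelial and angiogenic genes, 2 were higher, Rhoj and Prox1, and Prox1 is also counted among the Wnt targets. The list median was 0.30, and 20 genes were above 0. At the unadjusted p alone 5 were higher and 1 lower by limma, against 9.56% and 6.39% of all genes. Lyve1, a marker of lymphatic vessels, gave 0.76 (SE 0.27), and the vessel growth factor Vegfa gave -0.64 (SE 0.24). The endothelial markers Pecam1 and Plvap gave 0.69 (SE 0.39) and 0.13 (SE 0.38), and Plvap turned sign in fits that left out some water arrays.

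Of 23 cell cycle genes, 0 were higher or lower past the looser threshold and 0 at the unadjusted p alone by limma, with a median of 0.21. Pcna, the sliding clamp of DNA replication, had 0.14 (SE 0.20). Immediate early genes had a median of 0.02, and Jun had 0.23 (SE 0.22). Smooth muscle and fat markers had medians of -0.38 and -0.59, with 2 and 3 genes lower past the looser threshold, and their part in the metabolic results was not tested. Nerve markers had a median of -0.19, with 0 genes past that threshold. Ribosomal and reference genes had medians of 0.01 and -0.01.

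**Figure D4:**
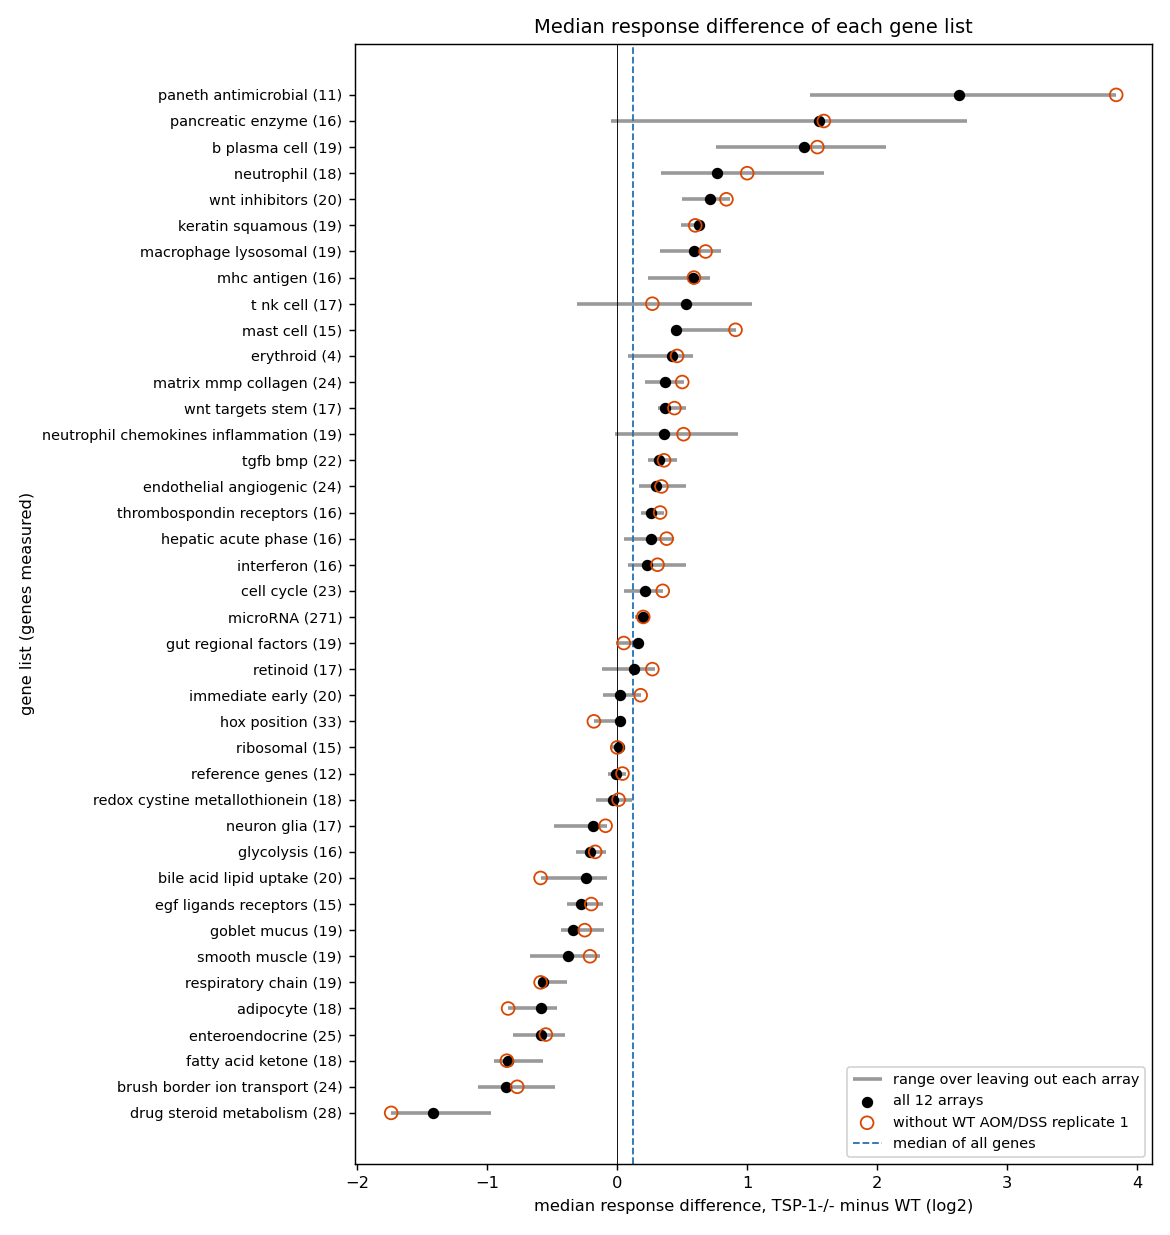
Median response difference (horizontal axis, log2, TSP-1-/- minus WT) of each of the 40 gene lists (vertical axis, with the number of genes measured) with all 12 arrays (black) and without WT AOM/DSS replicate 1 (open circles); grey lines span the fits that leave out 1 array and the dashed line is the median of all genes, 0.12. The drug and steroid list stays below 0 throughout (-1.74 to -0.97), and the pancreatic and T cell lists cross 0.

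MicroRNAs were compared through the probes of their genes, which do not tell the arms of a hairpin apart. Of 271 microRNA genes, 6 were higher and 0 lower past the looser threshold (median 0.20), and 29 were higher and 1 lower at the unadjusted p alone. The higher share was near the background of 9.56%, and 0 passed the adjusted test. Mir15a was 0.74, -0.06 and 0.50 in treated TSP-1-/- mice and -0.71, -0.28 and -1.01 in treated WT mice, with a response difference of 1.61 (SE 0.38, limma adjusted p = 0.198). Its neighbor Mir16-1 gave 1.08 (SE 0.30), Mir130a gave 1.17 (SE 0.26), and Mir17 and Mir19b-2 each gave 0.97 (SE 0.27 and 0.26). The mature sequences below are from RefSeq (GRCm38.p6) and are shown because these microRNAs are among those with the lowest p, with the seed, bases 2 to 8, in capitals. miR-15a-5p and miR-16-5p have the same seed, and the other 3 seeds differ.
miR-15a-5p, chr14:61632075-61632096: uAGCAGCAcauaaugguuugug
miR-16-5p, chr14:61631936-61631957: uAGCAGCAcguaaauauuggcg
miR-130a-3p, chr2:84741116-84741137: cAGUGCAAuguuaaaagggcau
miR-17-5p, chr14:115043684-115043706: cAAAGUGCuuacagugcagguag
miR-19b-3p, chrX:52741991-52742013: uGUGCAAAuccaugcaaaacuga

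The number of calls depended on single arrays. Leaving out each of the 12 arrays in turn gave 1 to 151 probes higher and 0 to 138 lower. The upper ends came without WT AOM/DSS replicate 1, the treated WT array nearest to TSP-1-/-, so leaving it out enlarges the genotype difference by construction. Without TSP-1-/- AOM/DSS replicate 2, 115 probes were higher and 23 lower, and without replicate 3, 29 and 1. Each other array left out gave 1 to 6 higher and 0 to 1 lower.

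The counts of the classes moved as well, and the array at the lower end was often TSP-1-/- AOM/DSS replicate 3. Without it 10 of 28 drug and steroid genes were lower past the looser threshold, 1 of 18 fatty acid genes, 2 of 24 brush border genes and 1 of 19 goblet cell genes, against 153 of all genes. The higher counts without it were 2 of 19 macrophage genes and 2 of 24 matrix genes, against 259 of all genes, while 7 of 20 Wnt inhibitors and 6 of 17 Wnt targets were higher. Over all 12 fits with an array left out, 7 to 9 Wnt inhibitors, 5 to 7 Wnt targets and 4 to 6 keratin genes were higher. The B and plasma cell count ran from 3 to 13, the upper end without TSP-1-/- AOM/DSS replicate 2, where 674 of all genes were higher. The enteroendocrine count was 5 without WT AOM/DSS replicate 2, and the goblet cell count was also 1 without WT water replicate 1.

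Without WT AOM/DSS replicate 1, 107 genes (0.537%) were called higher and 112 (0.562%) lower at the adjusted p. Of the Wnt inhibitors 6 of 20 were then called higher, of the Wnt targets 5 of 17, of the Paneth list 4 of 11 and of the mast cell list 3 of 15. Of the drug and steroid genes 6 of 28 were called lower, and of the bile acid, fatty acid, brush border, enteroendocrine and fat cell lists 3 each. Of the 33 listed Hox genes 4 were called lower and 0 higher. Hoxa6, a Hox gene outside that list that was named after its values were seen, was called higher at 1.71 (limma adjusted p = 0.0447), and among regional factors Osr2 had -5.41 (limma adjusted p = 0.000475). The lists of neutrophil, lymphocyte, respiratory chain, cell cycle and ribosomal genes had 0 calls in this fit. Ugt2b5 was then -4.44 (adjusted p = 0.000351), Apcdd1 3.07 (adjusted p = 0.000475) and Mcpt2 5.19 (adjusted p = 0.000383). The lone pair of treated WT arrays left in this fit is the pair with low Hoxb13, so genotype and position along the colon cannot be told apart in it.

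**Figure D5:**
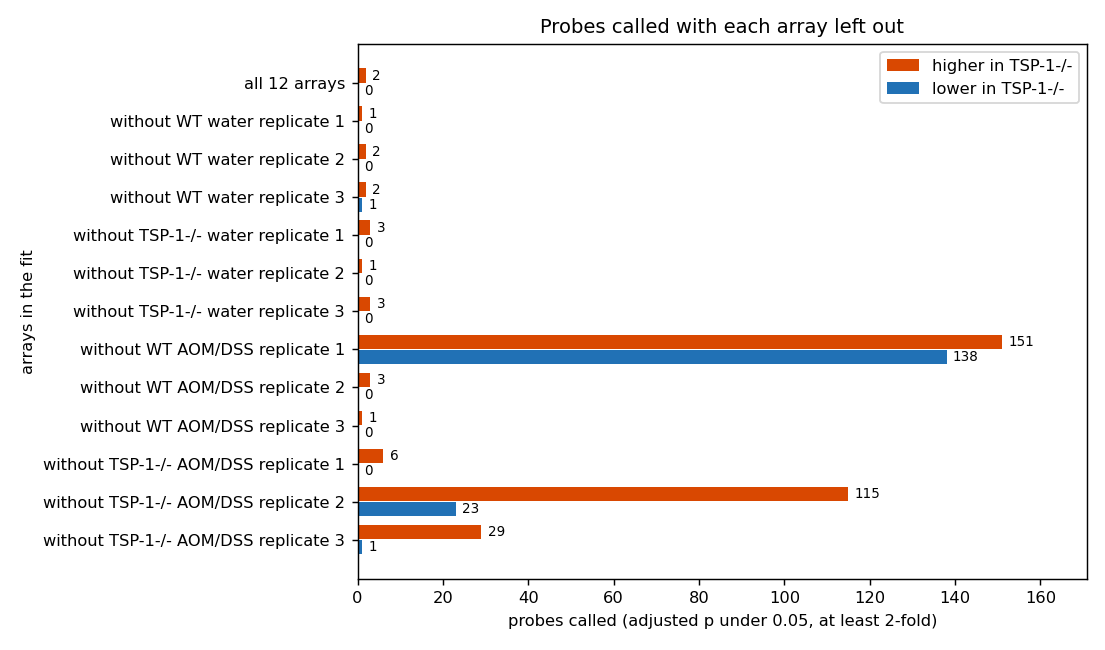
Number of probes called (horizontal axis, adjusted p under 0.05 and at least 2-fold) as higher (orange) or lower (blue) in TSP-1-/- with all 12 arrays and with each array left out (vertical axis). The counts are 2 and 0 with all arrays and 151 and 138 without WT AOM/DSS replicate 1.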

How the data were processed

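Colon RNA was hybridised to Affymetrix MoGene 1.0 ST arrays, 1 per mouse. The authors summarised the probes with PLIER16, quantile normalized them and deposited log2 values relative to a baseline for each probe. These values were used as deposited. Of 28853 probes, 38 lacked water values and were not tested, 21789 named 1 gene, 1621 several and 5443 none. Groups came from the sample titles. limma 3.58.1 in R 4.3.3 was fitted to all 12 arrays with 1 mean per group, and the interaction was tested with Benjamini-Hochberg adjustment over all probes. The methods' filter on low signal could not be applied to relative values, and their analysis of variance was replaced by limma. Members and 39 gene lists, of which 723 of 803 entries were measured, were chosen with earlier results of these arrays known, as was the naming rule: called genes, up to 4 members of each list with the lowest p, genes that the study named, and Thbs1. MicroRNA genes form 1 further list. The 18 pairs of same-numbered arrays correlated at -0.23 to 0.40, with 8 above 0.1, so the numbers were not taken to pair mice. On simulated arrays of 28815 probes, the fit called 24% of probes changed by log2 1, 84% at 2, 96% at 3 and 100% at 4, and 12 unchanged probes. The simulated noise was independent and normal, with the SDs shuffled over probes, and held no outlying array. These shares therefore do not cover genes whose spread rests on such an array. Alternatives were another scaling, a variability filter, array weights, robust moderation, a replicate block, gene means and leaving out arrays. The looser threshold and the fit without both outlying arrays were chosen after seeing the data. Certain genes are not reported here. Sequences are from RefSeq tables.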

Additional observations from a re-analysis of the deposited data

Results flagged for a closer look

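The responses of the genotypes differed by the test of the difference itself for 2 genes. Rfx4 had a response difference of 6.39 (SE 0.34, limma adjusted p = 8.03e-06), and the treated TSP-1-/- arrays exceeded the other 9 in 3 of 3 cases. Atp6v0d2 had a response difference of 2.99 (SE 0.32, limma adjusted p = 0.0115), and the treated TSP-1-/- arrays also exceeded the other 9 in 3 of 3 cases. No cause was tested for either gene. Groups of 3 arrays are too small for a test of outlying samples.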

How the results depend on the processing

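With 3 arrays per group, 1 array set per treatment and relative values, the limits of these comparisons are wide, and 1 array could change the number of calls. With the replicate number as a block, 1 probe was called higher and 0 lower, and the block ended the call of Atp6v0d2. Quantile normalization gave 15 higher and 3 lower when repeated over the 12 arrays and 17 higher and 3 lower within each array set, and most of these probes named no single gene. The variability filter gave 7 higher, array weights per treatment 15, robust moderation 4 and gene means 4, each with 0 lower. Weights per array gave 68 higher and 14 lower. Leaving out each array gave 1 to 151 higher and 0 to 138 lower. Without WT AOM/DSS replicate 1 and TSP-1-/- AOM/DSS replicate 3 together, 200 were higher and 202 lower. Rfx4 was called in each of these fits (3.96 to 6.58). Of 2697 values of 129 named genes under the alternatives, 2514 kept direction and side of the threshold, 165 passed it, 6 lost it, all of them Atp6v0d2, and 12 changed sign. Over the fits without 1 array Myc ranged from -0.13 to 0.37, Plvap from -0.12 to 0.39 and Rab18 from -0.18 to 0. Myc was -0.01 without WT water replicate 2, -0.06 without TSP-1-/- water replicate 3 and -0.13 without WT AOM/DSS replicate 2. S100a8 was -0.01 and Cpa3 -0.13 after repeated quantile normalization, and Cpa3 was -0.09 within sets. Plvap was -0.01 with weights per array, -0.04 without WT water replicate 3, -0.12 without TSP-1-/- water replicate 1 and -0.1 without the 2 treated arrays. Rab18, a small GTPase at -0.09, turned to 0.06 without the 2 treated arrays. The cause of these changes was not tested.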
